A study of Rattus norvegicus with 30 samples.

Results

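Camta1 encodes calmodulin-binding transcription activator 1, a transcription factor that responds to calcium signals through calmodulin and is strongly expressed in the brain. DNA methylation (DNAm) places a methyl group on cytosine, mostly where a guanine follows. Within the body of a gene, DNAm is common in transcribed genes, whereas at promoters it is usually found with silencing. The data described here are the 77 regions of DNAm along 260.48 kb of the Camta1 gene body, on chromosome 5 of the rat assembly Rn6, from chr5:168248504 to chr5:168508978. This stretch runs between the outermost of 3 differentially methylated regions that the study lists in Camta1, all of them annotated as intronic. A region was kept when it overlapped the stretch and had a called peak in at least 2 of 30 animals, and 77 of 432103 such autosomal regions did so. Because the ends of the stretch were set by sites selected from these same animals, the 3 listed sites are described without a test and left out of the counts of regions past a threshold.

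DNAm was measured by methylated DNA immunoprecipitation and sequencing (meDIP-seq), in which an antibody to 5-methylcytosine pulls down methylated fragments, in the prefrontal cortex (PFC) of 30 Sprague-Dawley rats at postnatal day 22. The dams of control (CON) animals had a pelleted control diet freely, and those of prenatal alcohol-exposed (PAE) animals had free access to a liquid diet with 36% of its calories from ethanol (6.37% v/v). The dams of pair-fed (PF) animals received a liquid diet in which maltose-dextrin replaced ethanol, in a ration matched to a PAE partner. The diets ran from gestation day 1 to 21. Each group held 10 animals from 5 dams, 1 labelled female and 1 labelled male per dam, so the 10 animals came from 5 litters. By their labels the libraries were sequenced on 5 lanes, numbered 4 to 8, and the groups were spread over them unevenly: lane 4 held no PF animal and lane 7 no PAE animal. Filtered fragments numbered 11548314 to 15472634 in CON, 12571392 to 16555049 in PF and 13254266 to 15537001 in PAE animals. In bulk cortex, a larger share of methylated cells and more DNAm in each cell cannot be told apart, and peaks of DNA do not show which cell types were present.

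Peaks on the sex chromosomes went against the labelled sex in 18 of the 30 animals. In 23 animals, 13 of them labelled female, 38 to 87 peaks lay on chromosome Y, and in the other 7 animals, 5 of them labelled male, 4 to 11 did. The 7 animals also had the larger share of their peaks on chromosome X, from 2.65% to 3.14%, against 0.774% to 1.15% in the 23. Labelled sex is therefore used below only as the label, and results are also given from the 12 animals (3 CON, 6 PAE and 3 PF) in which label and peaks matched. Of these, only PAE replicate 1 and PF replicate 5 were labelled female, and all 3 CON animals were labelled male.

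The level of a region in an animal was its normalized height, the highest pileup of the called peak (the number of fragments stacked at its summit) per 1000000 filtered fragments. An animal without a called peak, or with a lower one, was given a common floor of 0.438. Coverage without a called peak is not in the files, so the size of a difference from such animals is not known. The 77 regions measured between 257 and 1174 bp (median 550 bp) and together covered 17.7% of the stretch. Gaps between neighbours ranged from 179 to 9137 bp with a median of 2257 bp. The fold enrichment over local background that MACS2 gave the peaks had a median of 3.33 across the regions and reached 7.46. The next regions outside the stretch lay 1654 bases below it (called in 19 animals) and 5552 bases above it (called in 4 animals).

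Most of the regions were called in a minority of animals. The median region was called in 8 animals, against 6 among all 432103 regions. Peaks were called in 2 animals for 10 regions, in 3 to 5 for 24, in 6 to 15 for 29, in 16 to 27 for 11 and in 28 to 30 for 3. These are 13.0%, 31.2%, 37.7%, 14.3% and 3.90% of the 77, against 18.5%, 27.7%, 32.3%, 16.1% and 5.35% of all regions. At the limit of 2 animals, the 10 regions just inside had called heights of 0.477 to 1.63 (median 0.935), and 23 regions of the stretch called in 1 animal, left out, had heights of 0.515 to 1.63 (median 0.901). Frequent regions lay among sparse ones along the gene, as the plot of called peaks by animal shows. The median number of animals per region was lowest, at 4, from 130.2 to 195.4 kb.

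**Figure D1:**
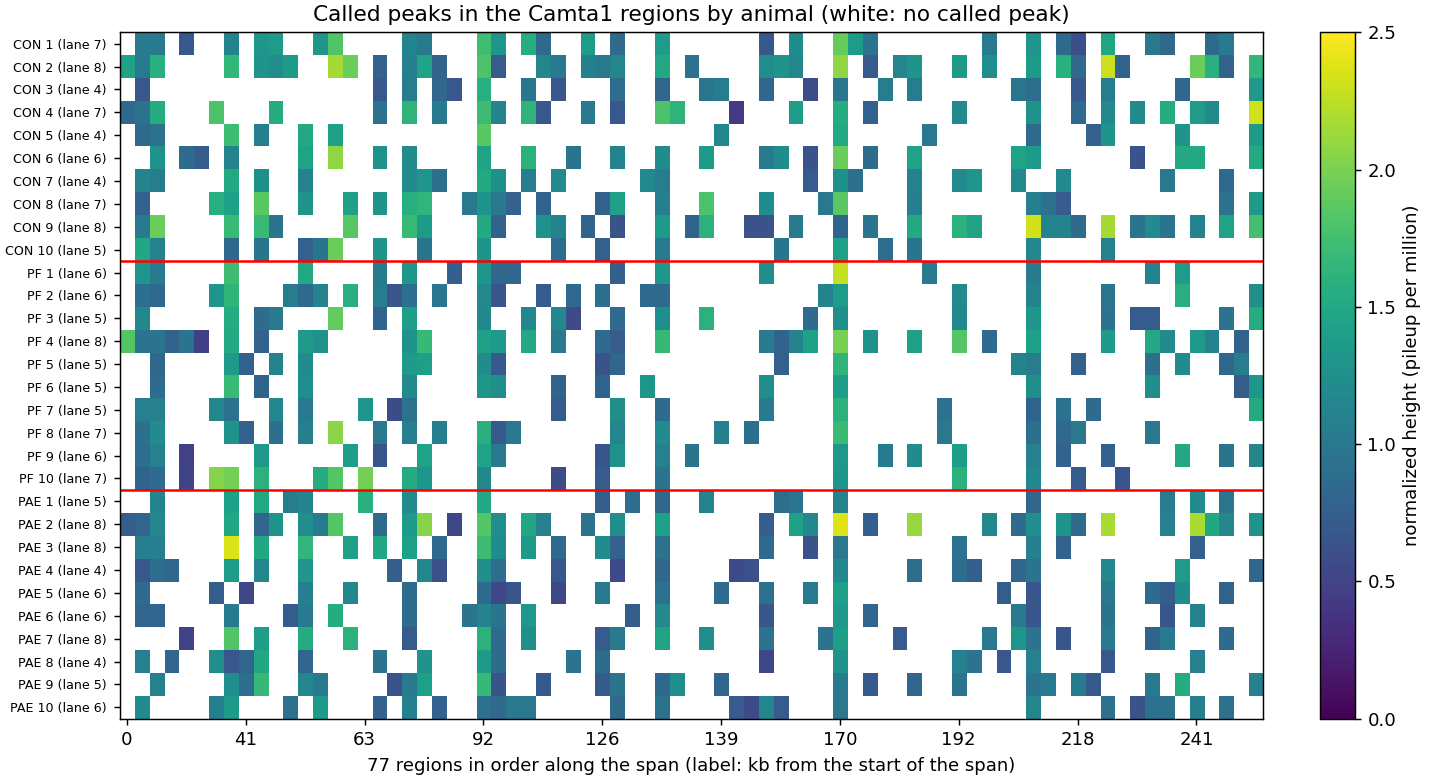
Normalized height (colour, pileup per 1000000 filtered fragments) of each of the 77 Camta1 regions (columns, in order along the stretch, labelled in kb from its start) in each of 30 animals (rows, with group, replicate and sequencing lane). White marks no called peak; a few columns are filled in nearly every animal, and the lane 8 rows CON 2, CON 9, PF 4 and PAE 2 hold the most peaks.

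The region at chr5:168417894-168419001 (1108 bp) was the tallest, and the only one of the 77 called in all 30 animals. Its normalized height was 0.803 at the lowest, 1.52 at the median and 2.09 at the highest in CON animals. The same values were 1.24, 1.50 and 2.28 in PF and 1.00, 1.23 and 2.38 in PAE animals. The 3 groups overlapped along most of their ranges, and the coefficient of variation over all animals was 26.8%. The fitted log2 difference of PAE from CON was −0.19 (SE 0.192), with an adjusted p of 0.827 by limma.

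Next in height was the region at chr5:168340195-168341368 (1174 bp), called in 29 animals, which had the highest median fold enrichment of the 77. Its normalized height was 1.29, 1.55 and 1.86 at the lowest, median and highest in CON, 0.438, 1.26 and 1.57 in PF, and 0.875, 1.43 and 1.84 in PAE animals. Only 1 PF animal was without a peak, and the groups overlapped. The region at chr5:168282270-168283099 (830 bp), called in 26 animals, followed. Its heights were 0.438, 1.28 and 1.72 in CON, 0.438, 1.52 and 1.98 in PF, and 0.438, 1.37 and 2.36 in PAE animals. Each group held animals without a peak there, and here the CON median was the lowest of the 3. The group means of these 3 regions lay between 1.20 (the third of them, in CON animals) and 1.59 (the first, in PF animals).

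**Figure D2:**
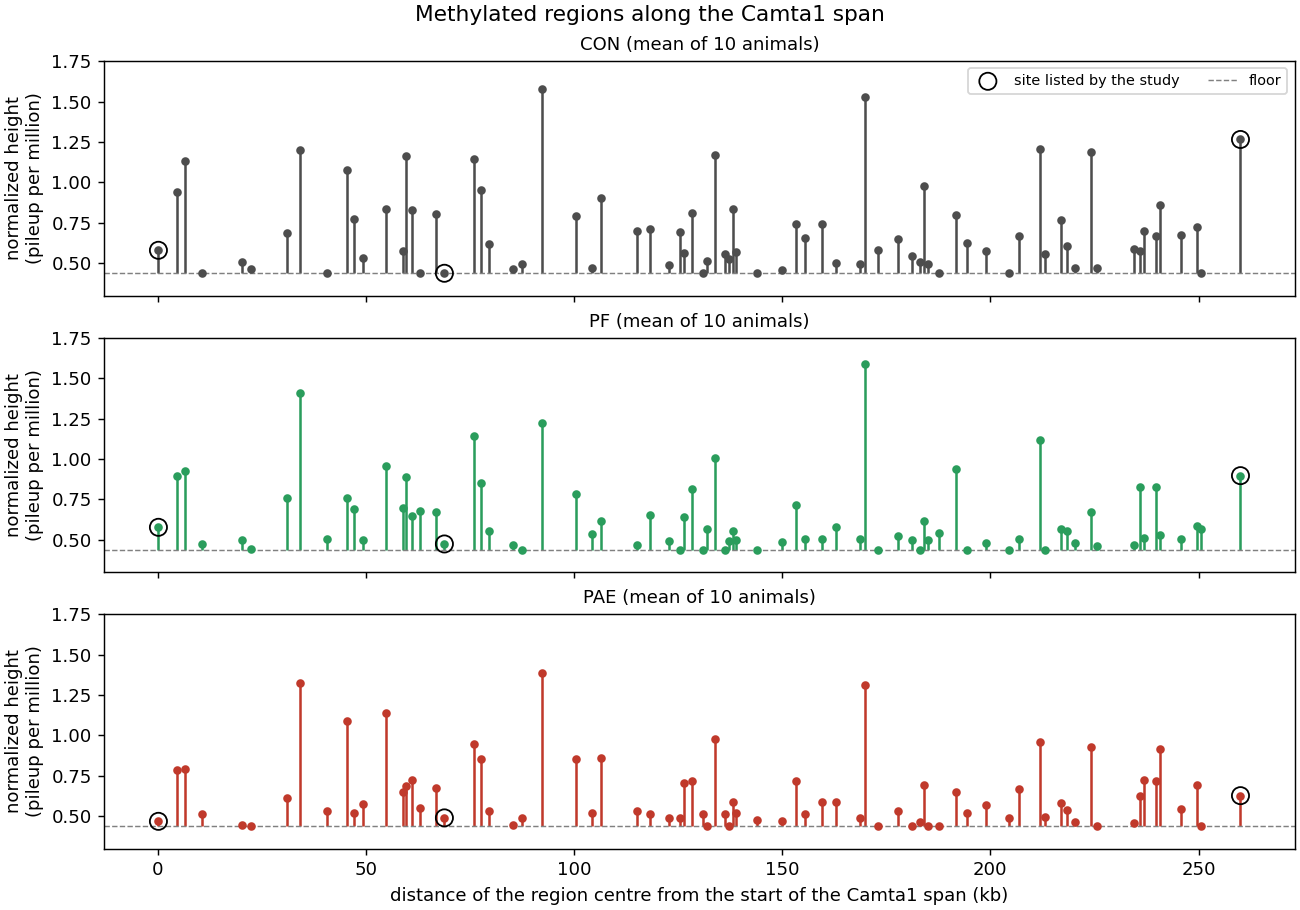
Mean normalized height (pileup per 1000000 filtered fragments) of the 77 Camta1 regions against their distance from the start of the stretch (kb), for CON, PF and PAE (10 animals each). Lines rise from the floor of 0.438, which stands for no called peak, and rings mark the 3 listed sites; the regions with group means above 1.2 at about 92 and 170 kb are tall in every group.

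The first question of the design is whether PAE animals differed in DNAm from CON animals along Camta1. Apart from the listed sites, 64 regions were called in at least 3 animals and tested, and 0 of them passed an FDR of 0.05 (limma with Benjamini-Hochberg adjustment over 352026 regions, background 0.000284%). The smallest adjusted p among them was 0.661. At an unadjusted p under 0.05 stood 7 of the 64 (10.9%), against 7.37% of all tested regions, with 5 lower (background 6.03%) and 2 higher (background 1.34%) in PAE animals. This lean depended on the scaling: 2 were higher and 1 lower with quantile normalization and with median ratio scaling, and 57.0% and 66.1% of the regions of the genome under 0.05 were lower, against 81.8%. The log2 difference was below 0 in 45 of the 64 regions (70.3%), against 63.2% of all regions, with a median of −0.13 against −0.05. With quantile normalization that median was −0.039, against −0.008 over all regions. It was −0.049 with median ratio scaling and −0.07 without CON replicate 7. The fitted differences ranged from −0.81 to 0.51, with a median standard error of 0.227. By Fisher's exact test on called and not called animals, 0 of the 64 regions had an unadjusted p under 0.05, against 0.864% of all tested regions. Without the lane term, 1 of the 64 was under 0.05 before adjustment, against 6.56% of all. With 1 animal left out the count of 7 ranged from 3 (without CON replicate 2, CON replicate 9 or PAE replicate 7) to 10 (without CON replicate 6). Of the 7, 3 reached the minimum of 3 animals only through the group in which they were higher, so the count is a description.

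Of the regions not listed, the one at chr5:168432079-168433075 (997 bp) had the smallest unadjusted p between PAE and CON animals. Its normalized height was 0.438, 1.06 and 1.53 at the lowest, median and highest in CON animals, against 0.438, 0.438 and 2.11 in PAE and 0.438, 0.438 and 1.43 in PF animals. There were peaks in 7 CON, 3 PAE and 2 PF animals, and the highest value of all 30 was that of a PAE animal. Between PAE and CON the fitted log2 difference was −0.81 (SE 0.297), with an unadjusted p of 0.0102 and an adjusted p of 0.661 by limma. Under the alternative settings the difference ranged from −1.97 to −0.25, and with 1 animal left out from −0.996 to −0.67. On each of the 4 lanes that held both groups the CON mean was higher, at 0.870 against 0.666 on lane 4, 0.970 against 0.638 on lane 5, 1.45 against 0.438 on lane 6 and 1.41 against 0.996 on lane 8. Lanes 5 and 6 held 1 CON animal each. By labelled sex, all 5 CON animals labelled male had a peak and 2 of the 5 labelled female did, against 1 and 2 PAE animals. The region was picked by its unadjusted p from these same values, so the splits by lane and by labelled sex are a description.

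The region at chr5:168366508-168367145 (638 bp) was among the 3 with the smallest unadjusted p both between PAE and CON animals and between PAE and PF animals. Its heights were 0.438, 0.557 and 1.19 in CON, 0.438, 0.438 and 0.859 in PAE, and 0.438, 0.512 and 1.17 in PF animals, with peaks in 5, 3 and 5 animals. The groups overlapped, and 5 or more animals of every group lay at the floor. PAE animals differed by −0.51 (SE 0.218) on the log2 scale from CON and by −0.48 (SE 0.219) from PF animals, with adjusted p of 0.663 and 0.988 by limma. When a peak had to cover at least 50% of the region, the difference from PF animals was −0.04. At chr5:168385412-168385923 (512 bp), 2 CON, 0 PAE and 1 PF animal had a peak, at heights of 0.935 and 0.803 in the CON animals, both on lane 8, and 0.966 in the PF animal. This region reached the minimum of 3 animals only through the CON group, so its PAE minus CON difference of −0.31 (log2), or −0.19 without CON replicate 2, is a description.

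**Figure D3:**
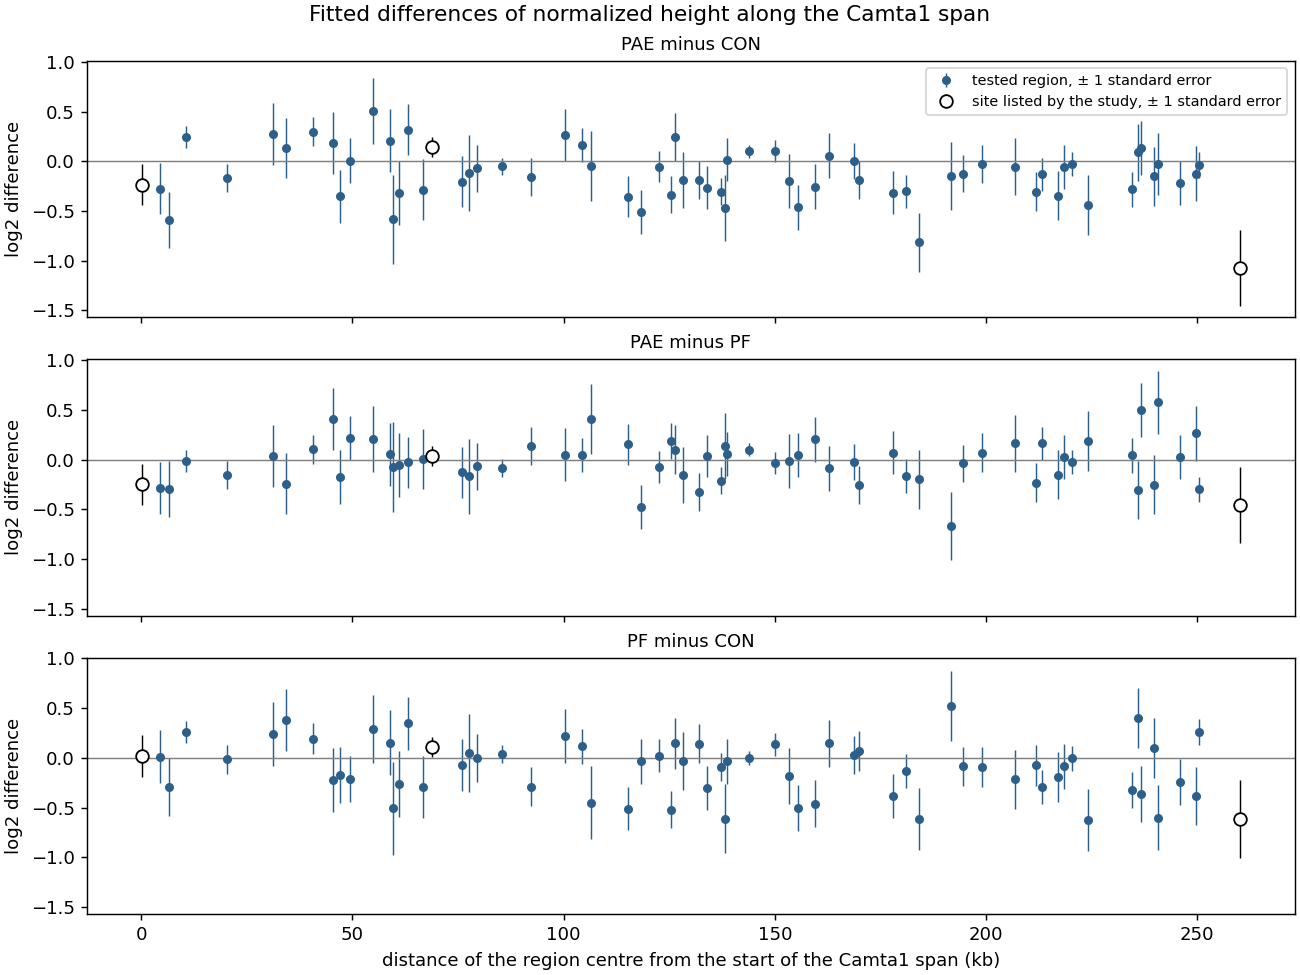
Fitted log2 difference of normalized height between groups for the 67 tested Camta1 regions against their distance from the start of the stretch (kb), with bars of 1 standard error; open circles are the 3 listed sites. Differences of PAE from CON lie mostly below 0, those of PAE from PF on both sides of it, and none of the regions not listed passed an FDR of 0.05.

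The second comparison sets PAE against PF animals, whose dams ate a liquid diet without ethanol in a ration matched to that of PAE dams. Of the 64 regions 0 passed an FDR of 0.05 (background 0.0%). At an unadjusted p under 0.05 by limma stood 2 of the 64 regions not listed (3.12%), both lower in PAE animals (background 2.95% lower, 1.51% higher, 4.46% in all), and by Fisher's exact test 0 of the 64 (background 0.747%). The direction turned with the scaling, with 2 higher and 0 lower under quantile normalization and 2 higher and 1 lower under median ratio scaling, beside 4.54% and 4.56% of the regions of the genome under 0.05, of which 50.1% and 54.9% were lower against 66.2%. With 1 animal left out the count ranged from 0 (without PAE replicate 1) to 3, and was 1 without PAE replicate 2, PF replicate 3 or PF replicate 10. Of the 2 regions, 1 was tested only through its peaks in PF animals, so nothing is read from the count against the background. The median log2 difference was −0.02, as over all regions, and 33 of the 64 (51.6%) were below 0, against 56.4% of all.

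The smallest unadjusted p between PAE and PF animals belonged to the region at chr5:168498742-168499338 (597 bp), which had a peak in 3 PF animals and in no CON or PAE animal. The 3 heights were 0.796, 1.06 and 0.733, and the other 27 animals were at the floor. The region reached the minimum of 3 animals only through the PF group, in which it was high, so its log2 difference of −0.30 between PAE and PF is a description. At chr5:168439827-168440822 (996 bp), peaks were called in 4 CON, 4 PAE and 5 PF animals, and the lowest, median and highest heights were 0.438, 0.438 and 1.61, 0.438, 0.438 and 1.09, and 0.438, 0.804 and 1.83. The number of animals with a peak was thus nearly the same in the 3 groups, and the highest PF values exceeded the highest PAE value. PAE minus PF there was −0.67 (log2), with an unadjusted p of 0.0616 by limma, the lowest difference of that comparison among the 64 regions. It ranged from −1.23 to −0.39 under the alternative settings, and from −0.89 to −0.53 with 1 animal left out.

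The third comparison, PF with CON animals, addresses the pair-feeding together with the form of the diet, liquid for PF and pelleted for CON dams. Of the 64 regions 0 passed an FDR of 0.05 (background 0.0%), and the smallest adjusted p among the regions not listed was 0.773 by limma. At an unadjusted p under 0.05 stood 4 of the 64 (6.25%), with 3 lower (background 4.39%) and 1 higher (background 2.06%) in PF animals, against 6.46% of all tested regions. Each animal's own floor gave 7 lower and 0 higher, quantile normalization 2 lower and 0 higher, and median ratio scaling 2 lower and 1 higher. Over the genome 6.82%, 4.96% and 5.37% of the regions were under 0.05 in these settings, and 81.3%, 57.3% and 62.3% of those were lower, against 68.1%. With 1 animal left out the count ranged from 3 (without PF replicate 6) to 7 (without CON replicate 1, CON replicate 10, PAE replicate 2 or PF replicate 3). Of the 4, 2 were tested only through the group in which they were higher, so this count too is a description. By Fisher's exact test 0 of the 64 had an unadjusted p under 0.05, against 0.786% of all tested regions. The median log2 difference was −0.08 against −0.03 over all regions, and 40 of the 64 (62.5%) were below 0, against 57.6% of all. With quantile normalization the median was −0.023, against −0.002 over all regions. It was −0.033 with median ratio scaling and −0.03 without CON replicate 2. Each group enters 2 of the 3 comparisons, so their counts are not independent of each other.

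The region at chr5:168373636-168374062 (427 bp) had the smallest unadjusted p between PF and CON animals, with peaks in 4 CON, 1 PAE and 0 PF animals. The 4 CON heights were 1.39, 1.08, 1.03 and 0.803, the PAE height was 0.953, and all of these animals were on lanes 7 and 8. Only 3 of the 10 PF animals were on those lanes. The region reached the minimum of 3 animals only through the CON group, in which it was high, so its PF minus CON difference of −0.52 (log2) is a description.

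At chr5:168363312-168364061 (750 bp), peaks were called in 5 CON, 2 PAE and 1 PF animal. The 5 CON animals, with heights of 0.686 to 1.28, were again on lanes 7 and 8 and were all the CON animals on those lanes, whereas the PF peak, with a height of 0.721, was on lane 6. Here PF minus CON was −0.51 (log2, SE 0.214), with an adjusted p of 0.773 by limma. The region at chr5:168258841-168259229 (389 bp) went the other way, with no peak in CON animals, 2 in PAE animals (0.825 and 0.815) and 1 in a PF animal (0.796). Both PAE peaks were on lane 4, which held no PF animal, and apart from the 1 PF animal all CON and PF animals lay at the floor. The fitted log2 difference of PF from CON, 0.26 with the lane term, was 0.09 without it, and 0.13 without that PF animal, when both groups lay wholly at the floor.

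No Camta1 region separated any pair of groups. Animals without a peak share the floor, so a pair of groups could separate only where every animal of a group had a peak. Elsewhere their overlap followed from the floor. Among the tested regions of the genome, 1 separated CON from PAE (0.000284%), and none separated PAE from PF or PF from CON. Over all 77 regions, 8 had no peak in any CON animal (background 12.5%), 9 none in any PAE animal (16.4%) and 10 none in any PF animal (15.0%). More CON than PAE animals had a peak in 31 of the 77 regions, fewer in 22 and as many in 24, against 44.8%, 30.1% and 25.1% of all regions. More CON than PF animals had one in 41, fewer in 22 and as many in 14, against 40.8%, 33.9% and 25.4%. For PAE and PF animals the numbers were 35, 24 and 18, against 32.6%, 40.4% and 27.1%.

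The 3 listed sites differed in how many animals carried them. The site at chr5:168508200-168508978 (779 bp, listed by the study as PAE-specific) had peaks in 7 CON, 3 PAE and 5 PF animals. Its normalized height was 0.438, 1.36 and 2.32 at the lowest, median and highest in CON, 0.438, 0.438 and 1.29 in PAE, and 0.438, 0.793 and 1.54 in PF animals. All 7 CON animals with a peak lay above all 10 PAE animals, and the other 3 CON animals lay at the floor with 7 of the PAE animals. On the log2 scale PAE minus CON was −1.07 (SE 0.379), PAE minus PF −0.46 (SE 0.38) and PF minus CON −0.62 (SE 0.393). The CON mean was higher than the PAE mean on lanes 4 (1.05 against 0.632), 6 (1.53 against 0.438) and 8 (1.71 against 0.723), and lower on lane 5 (0.438 against 0.766). Lanes 5 and 6 held 1 CON animal each. Peaks were seen under both labels of sex, in 4 CON, 2 PAE and 2 PF animals labelled female and 3, 1 and 3 labelled male. When a peak had to cover at least 50% of the region, PAE minus CON was −0.45.

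**Figure D4:**
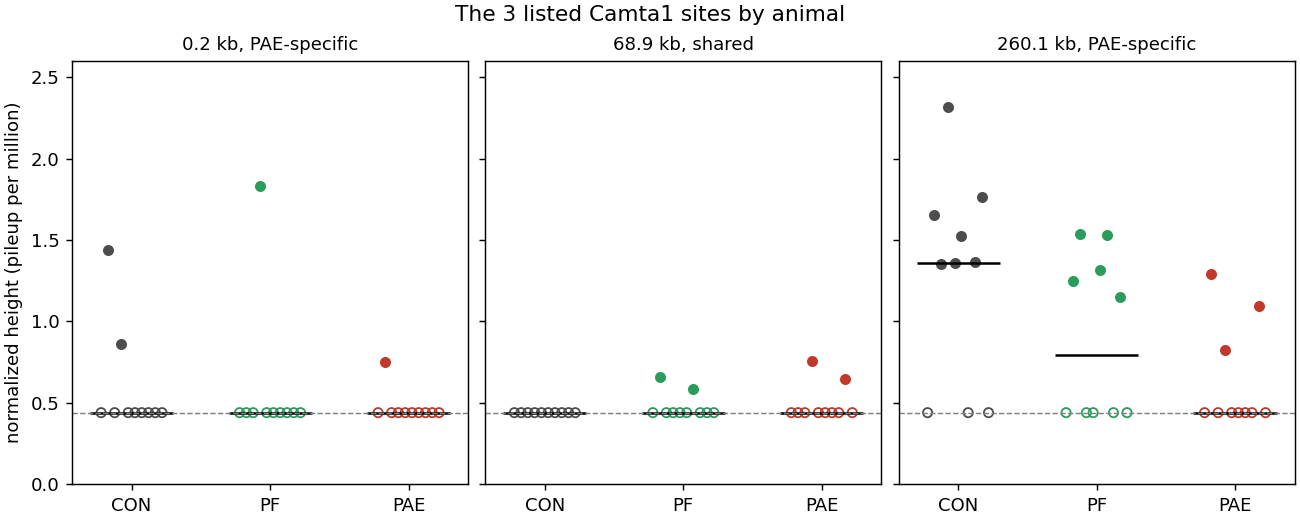
Normalized height (pileup per 1000000 filtered fragments) at the 3 Camta1 sites listed by the study, titled by distance from the start of the stretch, for each CON, PF and PAE animal. Filled points are called peaks, open points animals without one at the floor of 0.438 (dashed line), and black bars group medians; at 260.1 kb 7 CON, 5 PF and 3 PAE animals had a peak, and at the other sites 4 animals in all did.

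The site at chr5:168248504-168248869 (366 bp, also listed as PAE-specific) had a called peak in 4 of 30 animals. They were 2 CON animals with heights of 1.44 and 0.858, 1 PAE animal with 0.749 and 1 PF animal with 1.83. All 4 were labelled female, 3 of them were on lane 8 and 1 on lane 7. In each group 8 or more of the 10 animals lay at the floor. PAE minus CON was −0.23 (log2, SE 0.203) and PAE minus PF −0.25 (SE 0.204), and without PF replicate 4, the animal with the highest value, the difference from PF was −0.01. PAE minus CON was −0.09 without CON replicate 2 and −0.37 without CON replicate 9, which had no peak there but shared lane 8 with it.

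The site at chr5:168317172-168317578 (407 bp, listed as shared by PAE and PF animals) also had a called peak in 4 animals, and none of them was a CON animal. The 2 PAE heights were 0.756 and 0.644 and the 2 PF heights 0.655 and 0.583 against the floor of 0.438, and 1 of the 4 peaks had a q below 0.01. PAE minus CON was 0.14 and PF minus CON 0.11 on the log2 scale, and without PAE replicate 4 they were 0.03 and 0.05. The 4 animals came from 2 litters: the 2 PAE animals were the littermates of 1 dam, and the 2 PF animals those of another. Of the 38102 autosomal regions called in exactly 4 animals, 149 (0.391%) had peaks in both animals of 2 litters. That count was made after the pattern had been seen, at a site selected from these same animals, so it is a description. The 4 animals were on lanes 4, 5 and 6.

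Over all 77 regions, called or not called states matched in 51.8 of the 77 regions for CON littermates and 50.4 for other CON pairs, in 56.6 and 53.2 for PAE pairs, and in 55.2 and 55.1 for PF pairs (means of 5 and 20 pairs). Both animals of a litter had a peak in 1 of the 10 regions called in 2 animals (3.58% of all such regions), 0 of the 11 called in 3 (10.6%), 1 of the 5 called in 4 (21.3%) and 5 of the 8 called in 5 (34.2%).

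Along the gene, the median log2 difference of PAE from CON was 0.07 over the first 65.1 kb of the stretch (16 tested regions), −0.09 from there to 130.2 kb (16), −0.19 to 195.4 kb (18) and −0.12 over the rest (17), listed sites included. The medians of PF from CON were 0.01, −0.02, −0.09 and −0.22, and those of PAE from PF stayed between −0.04 and 0.03. Over the first 65.1 kb an animal had a peak in a mean of 34.7% of the regions in CON, 35.9% in PAE and 37.6% in PF. From 130.2 to 195.4 kb, which held the most regions (24) and the lowest median number of animals per region (4), the shares were 30.0%, 24.2% and 19.2%. No test was run on these medians.

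The number of the 77 regions with a peak averaged 27 ± 7.48 over CON, 24.8 ± 5.05 over PAE and 22.3 ± 5.33 over PF animals (SD, n = 10). The lowest, median and highest numbers were 15, 26.5 and 40 in CON, 19, 24.0 and 37 in PAE, and 16, 21.5 and 35 in PF animals, so the groups overlapped. As shares of the 77 regions, the means were 35.1%, 32.2% and 29.0%, beside 33.1%, 29.8% and 31.6% of all autosomal regions in the same animals. The ratio of the Camta1 share to the share of all regions averaged 1.05 ± 0.178 over CON, 1.09 ± 0.146 over PAE and 0.916 ± 0.164 over PF animals (SD, n = 10). PF animals thus had the lowest Camta1 share, whereas over all regions PAE animals had the lowest.

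Sequencing lane moved with these numbers. Mean Camta1 shares were 28.1%, 26.7%, 30.2%, 33.8% and 42.4% on lanes 4 to 8, beside 27.6%, 29.6%, 29.3%, 34.1% and 37.3% of all regions. The median fragment size in the peak files was 232, 240, 236, 244 and 252 bp on the same lanes. The 4 animals with peaks in the most Camta1 regions (CON replicates 2 and 9, PAE replicate 2 and PF replicate 4) were all on lane 8. On that lane the shares were 49.4% in 2 CON, 36.8% in 3 PAE and 45.5% in 1 PF animal; on lane 5 they were 24.7% in the 1 CON animal, 30.5% in 2 PAE animals and 25.3% in 4 PF animals, so the order of the groups differed between lanes. The part of fragment size in these shares was not tested.

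**Figure D5:**
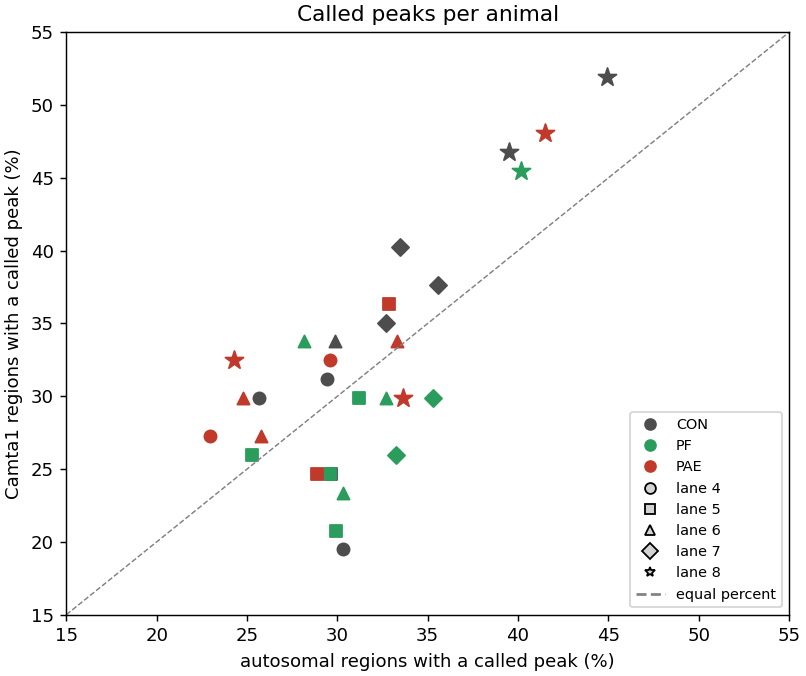
Percent of the 77 Camta1 regions with a called peak against the percent of all 432103 autosomal regions with one, for each animal, coloured by group (CON, PF, PAE) and shaped by sequencing lane. The dashed line marks equal percents; 4 lane 8 animals stand apart at the upper right, and most PF animals lie below the line.

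Whether the PAE effect differed between the labelled sexes was tested as an interaction. None of the 64 regions passed an FDR of 0.05 in any of the 3 comparisons (background 0.0% each), with a smallest adjusted p of 0.942 for PAE against CON, 1 for PAE against PF and 0.982 for PF against CON by limma. At an unadjusted p under 0.05 stood 3, 0 and 2 of the 64 regions, against 4.87%, 3.19% and 4.77% of all tested regions. In the 12 animals in which label and sex-chromosome peaks matched, 41 Camta1 regions not listed could be tested between groups, and 0 passed an FDR of 0.05 in any comparison (background 0.00147% for PAE against CON and 0.0% for the others). For PAE against CON, 4 of those 41 had an unadjusted p under 0.05 by limma (9.76%, background 6.93%), all lower in PAE animals. For PAE against PF there were 4 (9.76%, background 3.12%), 2 lower and 2 higher in PAE animals. For PF against CON there were 5 (12.2%, background 4.6%), 4 lower and 1 higher in PF animals. Over the genome 89.9%, 70.5% and 71.4% of the regions under 0.05 were lower. The minimum of 3 animals was applied within these 12, so a region could be tested only through the group in which it was higher. How many were was not counted, so these counts too are a description. The median log2 differences of the 41 regions were −0.23, −0.11 and −0.22, against −0.13, −0.02 and −0.08 for the 64 in all animals. Of the 12 animals, the CON animals were on lanes 4, 6 and 8 and the PF animals on lanes 5, 6 and 7. No CON animal among them was labelled female. Group, lane and labelled sex were thus only partly separable in these animals.

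Between PAE and CON animals, the sequence on either side also had a median below 0. The flank of equal length below it held 72 regions (1 of them a site of the study's list) and the flank above it 74, against 77. Listed sites are left out of the medians and shares that follow. The median log2 difference of PAE from CON was −0.17 below and −0.15 above, against −0.13 for the 64 Camta1 regions. An unadjusted p under 0.05 by limma was found in 11.9% of the flanking regions on each side. The same share was 10.9% in Camta1 and 7.25% over all tested regions. All 3 stretches thus lay further below 0 than the −0.05 over all tested regions in this scaling. With quantile normalization the Camta1 median was −0.039 and that over all regions −0.008. The flanks are given in the main scaling only. The Camta1 stretch stood nearest to 0 between PAE and PF animals, with a median of −0.02 against −0.08 in both flanks and −0.02 over all tested regions. That Camta1 median was 0.0015 with quantile normalization and 0.00016 without the lane term. Between PAE and PF animals 8.47% of the regions below and 1.49% of those above had an unadjusted p under 0.05, against 3.12% in Camta1 and 4.42% of all. Between PF and CON animals 13.6% and 7.46% did, against 6.25% in Camta1 and 6.35% of all. PF animals had peaks in 34.5% of the regions below and 38.2% of those above, against 29.1% in Camta1, and 0 and 5 regions were called in all 30 animals, against 1. The difference between the stretches was not tested.

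Magi1, Ephb1 and Tmem178b also hold at least 2 sites each in the study's list of PAE-specific regions, and the stretches between those sites were set beside Camta1. Cpne4, for which the study also reports multiple such regions, was not compared. These stretches too were set by sites listed for a difference in PAE animals, so their values are a description, and the listed sites are left out of the medians and shares. Magi1, which encodes a scaffold protein of cell junctions and synapses, held 78 regions, Ephb1, an ephrin receptor kinase, 86, and Tmem178b 42. Camta1 had 29.6 regions per 100 kb, against 27.6, 24.7 and 16.4. The median log2 difference of PAE from CON was −0.12 in Magi1, −0.11 in Ephb1 and −0.10 in Tmem178b, beside −0.13 in Camta1. Between PAE and PF animals the medians were −0.05, −0.11 and −0.05, against −0.02 in Camta1 and −0.02 over all tested regions. PF animals had peaks in 29.1% of the Camta1 regions and PAE animals in 32.7%, against 25.3% and 23.3% in Magi1, and 30.8% and 26.7% in Ephb1, and in Tmem178b too the share was lower in PAE than in PF animals. These differences between genes were not tested.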

How the data were processed

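Reads were mapped by the authors to Rn6 (BWA), filtered (samtools), and turned into peaks animal by animal with MACS2 (2.1.4 in the file headers; q 0.05, no control). The deposited signal is the pileup (fragment coverage where the peak is highest), not scaled for depth. The deposited −log10 q-value set the stricter peak threshold, and the deposited fold enrichment, a ratio to local background, was only described. The deposited −log10 p-value was not used. The authors' later read counts were not used here.

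Autosomal peaks overlapping by at least 1 bp were merged into 604866 regions, and the highest pileup per 1000000 filtered fragments was taken per animal, with a floor of 0.438. The floor, the highest of the animals' own lowest heights, limits precision, since coverage below it is not in the peaks. Log2 heights of 352026 regions called in at least 3 animals went into limma 3.58.1 (R 4.3.3) with group, lane and labelled sex as terms and a trended prior variance (for the sex difference, with the group by sex interaction), with Benjamini-Hochberg adjustment over all of them. The fit was tested on simulated data. Python 3.11.15 with numpy 2.4.6, pandas 2.3.3 and matplotlib 3.10.9 did the rest. No 2 libraries held identical values.

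Members and lists were chosen with earlier results of these data known. Regions named are the listed sites, the 3 with the smallest unadjusted p per comparison, the 3 tallest, and those called in all animals. Alternatives changed the lane and sex terms, libraries, floor, scaling, peak threshold, overlap, minimum number of animals, litter, test and animals. The genome sequence of Rn6 was not used here.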

Additional observations from a re-analysis of the deposited data

Results flagged for a closer look

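Of 45 groups of 10 animals examined, 13 held an animal whose gap to the next exceeded Dixon's limit. The usual rate of about 1 in 20 is for values without ties, and many of these groups held animals tied at the floor. The 13 are thus not set against that rate. PAE replicate 2, on lane 8, stood apart as the highest PAE animal in 5 regions, with normalized heights of 0.749 at chr5:168248504-168248869, 1.09 at chr5:168363312-168364061, 0.953 at chr5:168373636-168374062, 2.38 at chr5:168417894-168419001 and 2.11 at chr5:168432079-168433075. The same animal had a peak in 37 of the 77 Camta1 regions, the most in its group. PF replicate 4, also on lane 8, had the most in PF animals (35) and stood apart with 1.83 at chr5:168248504-168248869 and 0.796 at chr5:168258841-168259229. CON replicate 2 stood apart with 1.44 at chr5:168248504-168248869. PF replicate 2 had 0.721 at chr5:168363312-168364061 and PF replicate 9 had 0.966 at chr5:168385412-168385923, each the highest of its group. PF replicate 7 was the lowest at chr5:168340195-168341368, at the floor of 0.438. In regions called in few animals, such a gap is the step from the floor to a called peak.

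In data outside the comparisons, chromosome X and Y peaks went against the labelled sex in 18 of 30 libraries.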

How the results depend on the processing

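Listed sites are left out of the counts past a threshold and of the medians here, and kept in the numbers of regions with a peak per animal. The count of Camta1 regions past an FDR of 0.05 was 0 in every comparison under all alternatives run, leaving out single animals included (group comparisons only), and the smallest adjusted p over them was 0.566 (limma) for PAE against CON, 0.939 for PAE against PF and 0.558 for PF against CON. The median log2 difference of PAE from CON stayed below 0, from −0.23 in the 12 animals matching their labelled sex to −0.04 with quantile normalization. That of PAE from PF (−0.02) reversed without the lane term (0.00016), with each animal's own floor (0.0138), with a pseudocount of 0.1 and no floor (0.0279) and with quantile normalization (0.0015), and ranged from −0.031 to 0.0282 with 1 animal left out, above 0 without PF replicate 2 or 4 or PAE replicate 1, 6 or 7. That of PF from CON (−0.08) was 0.0683 in the 1 region called in all 30 animals, −0.22 in the 12 animals matching their labelled sex and −0.03 without CON replicate 2; in those 12 animals that of PAE from PF was −0.11. Listed sites kept their direction, with 1 exception. With the pseudocount, which takes the place of the floor, the log2 differences of PAE from CON were −2.13 at chr5:168508200 and 0.59 at chr5:168317172, where PF from CON was 0.53. Fisher's exact test saw equal numbers of PAE and PF animals at chr5:168248504 (a difference of 0). With peaks covering at least 50% of the region, animals had peaks in means of 17.8 (CON), 15.8 (PAE) and 13.1 (PF) regions. No paired analysis between groups was possible. They share no dams, and the labels do not give the PAE partner of each PF dam. For the labelled sex difference littermates can be paired: with a replicate block by dam, chosen after seeing the data, 0 regions passed in any comparison, as without it. The random effect of litter had a consensus correlation of −0.03. Uncalled coverage is not in the files, so a lack of a difference was not shown.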
